A study of Mus musculus with 6 samples.

Results

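Nuclear-encoded genes of oxidative phosphorylation were examined in mouse liver 6 h after treatment with FGF19, a hormone that the ileum releases after a meal. The genes were taken by symbol alone: those whose name marks a subunit of NADH dehydrogenase (Nduf), succinate dehydrogenase (Sdh), the cytochrome bc1 complex (Uqcr, Cyc1), cytochrome c (Cycs), cytochrome c oxidase (Cox4 to Cox8) or ATP synthase (Atp5). This gave 87 of the 23284 genes counted, of which 35 belong to complex I, 4 to complex II, 9 to complex III, 20 to complex IV and 15 to complex V. The remaining members were Cycs and 3 genes that share the naming but are not subunits, Atp5s, Atp5sl and Cox4nb. Ndufa4 was placed in complex IV, where its protein is found, together with its paralog Ndufa4l2. The livers came from C57BL/6 mice aged 8 weeks that had been fasted overnight and were given vehicle (3 mice) or FGF19 at 1 mg/kg (3 mice) for 6 h while the fast went on. FGF19 is the human hormone and its mouse counterpart is FGF15, so the treated mice received the protein of another species at a single dose and time. Each library was made from the RNA of whole liver of 1 mouse.

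Oxidative phosphorylation takes place in the inner mitochondrial membrane. Complexes I and II pass electrons from NADH and succinate to ubiquinone, complex III passes them on to cytochrome c and complex IV hands them to oxygen. Complexes I, III and IV pump protons as they do so, and complex V, the ATP synthase, uses the returning protons to make ATP. Most subunits are encoded in the nucleus, and complexes I, III, IV and V also hold subunits encoded in mitochondrial DNA. In liver, these complexes supply the ATP for gluconeogenesis and urea synthesis during fasting and take up the electrons released by fatty acid oxidation.

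The total count per library was between 18994654 and 22920056, and 15170 to 15442 genes had at least 1 count. The unit used below is CPM, the count of a gene relative to all counts of its library after TMM scaling, whose factors were between 0.964 and 1.03. A count of 0 allows at most 3 counts, which is 0.136 to 0.159 CPM. These limits cover counting error only. The hepatocyte markers, which include Alb and Apoa1, were abundant in every library. Their summed level was 101480.4 to 106144.6 CPM with vehicle and 93128.9 to 105121.2 CPM with FGF19. Most of this sum was Alb, with a mean of 69308.0 CPM with vehicle. None of the 8 passed the test. Among them, Cps1 and Hnf4a (log2 fold changes -0.35 and -0.31) had every FGF19 library below every vehicle library. Tat was the only one above 0 (0.39), and its groups overlapped. The summed level of the 6 monocyte and neutrophil markers was 2.19 to 3.57 CPM with vehicle and 9.64 to 11.2 CPM with FGF19, and 2 of the 3 tested were higher. The myeloid marker Marco, counted here among 6 Kupffer cell markers, was also higher, while the summed level of that list overlapped between the groups. Among the other lists, Fabp4 of the adipocyte markers was higher (log2 fold change 0.51, adjusted p = 0.0344 in edgeR) and Colec11 of the stellate cell markers was lower (-0.75, adjusted p = 0.00878 in edgeR). Adipoq, Plin1 and Lep, which define fat cells, were at or below the floor of 3 counts in every library. No muscle marker was tested, and Ucp1, which defines brown fat, was at or below the floor of 3 counts. The part of these markers in the results below was not tested. In whole tissue, fewer cells of a type and less RNA per cell cannot be told apart.

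Summed over all members, the level of the oxidative phosphorylation genes was lower after FGF19, and most single genes had a small log2 fold change below 0. Their share of all counts was 1.29%, 1.22% and 1.26% in the vehicle libraries and 1.04%, 1.02% and 1.12% in the FGF19 libraries, so the groups did not overlap. The summed level of the 87 genes was 12561.2 ± 255.6 CPM (SD, n = 3) with vehicle and 10656.3 ± 899.2 CPM (n = 3) with FGF19, a value lower by 15.2%. Of the 81 genes with enough counts to be tested, 79 had a log2 fold change below 0, a share of 97.5% where 50.1% of the 12559 genes tested lay below 0. Their median log2 fold change was -0.24, with quartiles of -0.29 and -0.20, beside a median of -0.0008 and quartiles of -0.17 and 0.18 over all genes tested.

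Few single genes passed the test. With edgeR's quasi-likelihood test and Benjamini-Hochberg adjustment over all genes, 4 members (4.94%) fell at an adjusted p under 0.05, where 2.84% of all genes tested did, and none rose, where 4.56% of all genes did. The 4 were Sdhd, Ndufa6, Ndufb10 and Atp5sl. At an unadjusted p under 0.01, 12 members (14.8%) were lower and none higher, beside 4.98% and 6.2% of all genes tested. At an unadjusted p under 0.05, 49 members (60.5%) were lower and none higher, beside 11.3% of all genes that were lower. Every FGF19 library lay below every vehicle library for 59 members (72.8%), a pattern shared by 13.8% of all genes tested. The opposite pattern was seen in none of the members, beside 14.5% of all genes. The count of 4 rests on which libraries enter. It was 57 without FGF19 replicate 3 (70.4%, beside 7.30% of all genes) and 1 (Sdhd) without vehicle replicate 2 (1.24%, beside 1.59%). It was 0 without vehicle replicate 1, vehicle replicate 3, FGF19 replicate 1 or FGF19 replicate 2, where 0.719% to 1.32% of all genes fell. The count of 12 at p under 0.01 likewise became 63 without FGF19 replicate 3 (77.8%, beside 8.20% of all genes). Without each of the others it was between 1 and 4, or 1.23% to 4.94% of members, close to the 2.56% to 3.57% of all genes. DESeq2 on all 6 libraries called 8 members (9.88%), the same 4 among them, beside 4.13% of all genes.

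**Figure D1:**
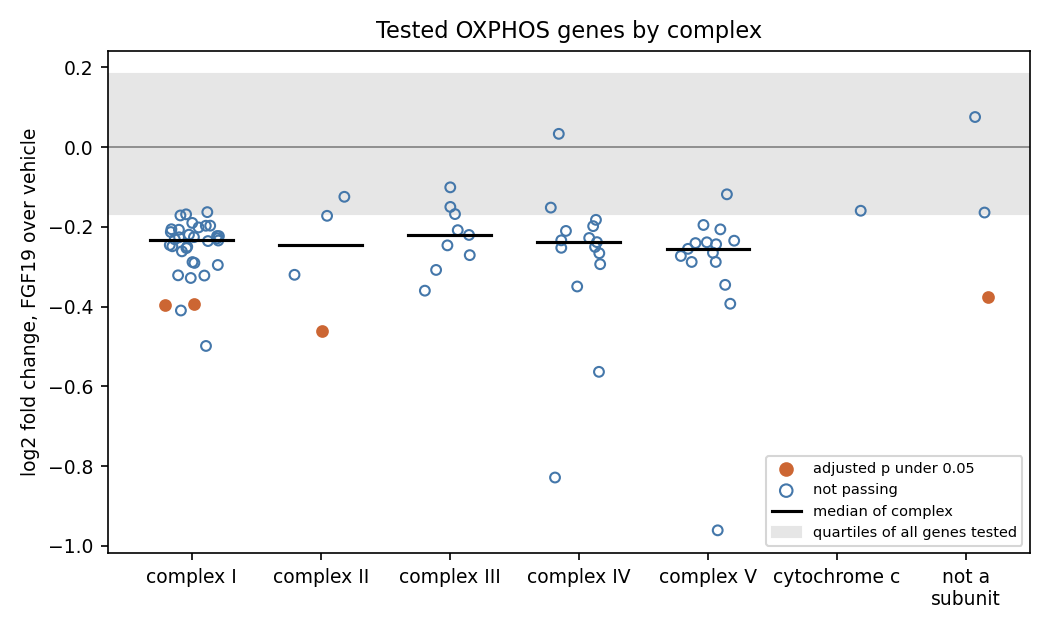
Log2 fold change of FGF19 over vehicle for each tested gene (circles), grouped by complex, with the median of each complex as a black line and the quartiles of all genes tested in grey. The medians of the 5 complexes lie between -0.26 and -0.22, and only 4 genes (filled) passed an adjusted p under 0.05.

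**Figure D2:**
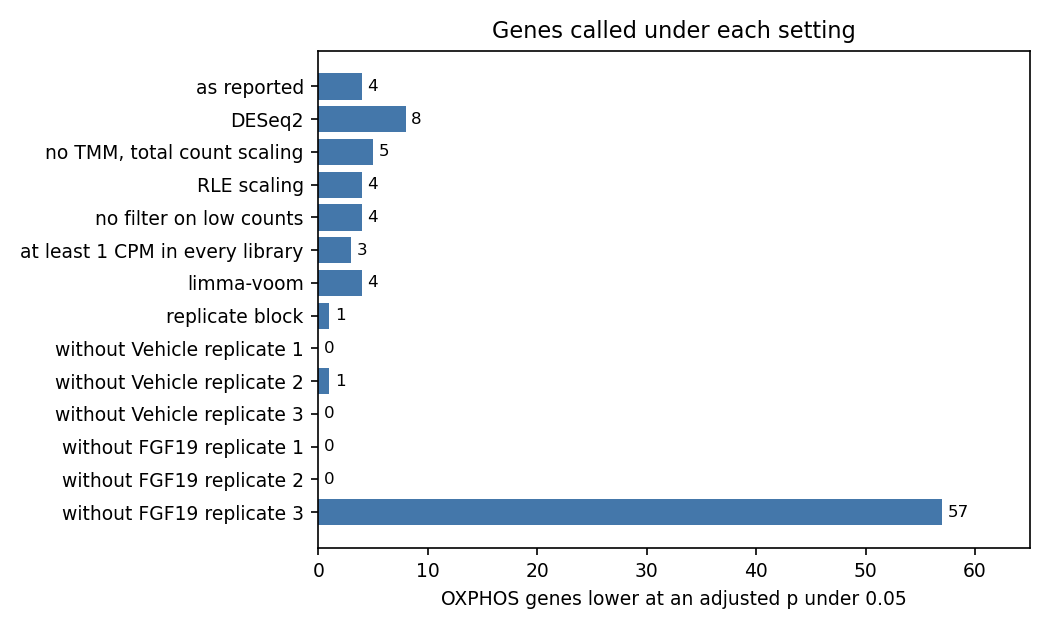
Number of oxidative phosphorylation genes lower at an adjusted p under 0.05 with the settings reported here and under each alternative. The bar without FGF19 replicate 3 stands at 57, and the others are between 0 and 8.

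The 5 complexes differed little from each other in the size of the change. The median log2 fold change was -0.23 in complex I (34 genes tested), -0.25 in complex II (4), -0.22 in complex III (9), -0.24 in complex IV (15) and -0.26 in complex V (15). The summed level was lower by 16.3% in complex I, 15.4% in complex II, 13.6% in complex III, 15.3% in complex IV and 14.95% in complex V. Each complex therefore took almost the same share of the members' summed level in both groups. Complex V, for example, held 36.1% with vehicle and 36.2% with FGF19, and complex I held 24.4% and 24.1%. No test between complexes was made. Leaving out Atp5s, Atp5sl, Cox4nb, Cycs, the tissue-restricted isoforms and the paralogs Ndufa4l2 and Cox7a2l, all 73 structural subunits tested had a log2 fold change below 0. Of these, 69 lay between -0.4 and -0.1. The SD of the 73 fold changes was 0.11, and the median standard error of a single fold change, which includes the spread between mice that the subunits share, was 0.10.

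The FGF19 libraries were not alike, and FGF19 replicate 3 stood nearer to vehicle than the other two. The median log2 ratio of all members to their vehicle mean was 0.02, -0.02 and 0.01 in vehicle replicates 1, 2 and 3, and -0.30, -0.36 and -0.08 in FGF19 replicates 1, 2 and 3. The same order held in each complex. In complex I the FGF19 values were -0.30, -0.37 and -0.07, and in complex V they were -0.31, -0.37 and -0.09. FGF19 replicate 3 was the highest of its group for 77 of 81 members (95.1%), beside 42.3% of all genes tested. FGF19 replicate 2 was the lowest for 61 members (75.3%), beside 32.9% of all genes. The median coefficient of variation of the members was 3.25% between vehicle mice and 10.9% between FGF19 mice, where all genes tested had 9.70% and 11.5%. FGF19 replicate 3 also had the highest total count, 22920056, and the lowest TMM factor, 0.964, and the part of these in its position was not tested. Without it, the median log2 fold change of the members was -0.32, and 57 members (70.4%) fell at an adjusted p under 0.05 in edgeR, beside 7.30% of all genes. The 57 included the 4 called with all 6 libraries. Without each of the other libraries in turn, the median was between -0.25 and -0.18.

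**Figure D3:**
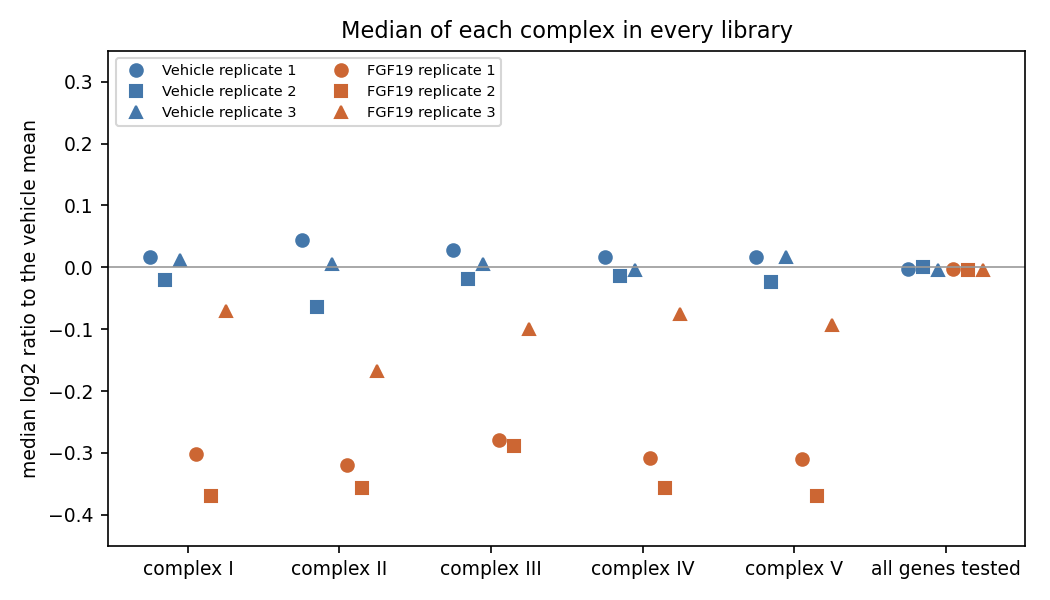
Median log2 ratio of each complex to the vehicle mean in every library, with vehicle replicates in blue and FGF19 replicates in orange, and all genes tested at the right. In all 5 complexes the FGF19 values are below those of vehicle, and FGF19 replicate 3 (triangle) is the nearest to 0.

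Complex II had log2 fold changes from -0.46 to -0.12, and 1 of its 4 subunits passed the test. Sdhd, which encodes a membrane anchor subunit that helps bind ubiquinone, was at 262.0, 239.8 and 263.9 CPM with vehicle and at 177.9, 175.8 and 202.2 CPM with FGF19. The 3 FGF19 values were all well below the lowest vehicle value. Sdhd fell by 0.46 on the log2 scale (SE 0.09), from 255.2 ± 13.4 to 185.3 ± 14.7 CPM (SD, n = 3 each), with an adjusted p of 0.0164 in edgeR's quasi-likelihood test. Its gene lies on chr9:50404445-50411954 in mm9. Sdhb, the iron-sulphur subunit, was at 198.9 ± 1.48 CPM (SD, n = 3) with vehicle, where the lowest value was 197.2 CPM, and at 150.2, 143.7 and 183.9 CPM with FGF19. These groups did not overlap either, but the log2 fold change of -0.32 had an adjusted p of 0.101 in edgeR. Sdhc, the other membrane anchor, overlapped between the groups (-0.17, adjusted p = 0.285 in edgeR). Sdha, the flavoprotein that oxidises succinate, was at 480.1, 431.1 and 449.0 CPM with vehicle and at 429.2, 430.2 and 388.2 CPM with FGF19. FGF19 replicates 1 and 2 lay just under the lowest vehicle value and replicate 3 further below it, and Sdha was 1 of 3 members that were lowest of the group in FGF19 replicate 3 (-0.12, adjusted p = 0.454 in edgeR). The ratio of Sdhd to Sdha, which does not depend on how libraries are scaled, was 0.546, 0.556 and 0.588 with vehicle and 0.415, 0.408 and 0.521 with FGF19. The ratio was lower in each FGF19 library than in any vehicle library. It was chosen after the values were seen and was not tested.

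All 34 tested subunits of complex I had log2 fold changes below 0, from -0.50 to -0.16. The 7 core subunits, which carry the flavin and the iron-sulphur clusters, had a median of -0.23, and the 27 tested accessory subunits, which surround and stabilise them, had a median of -0.25. Both genes of complex I that passed the test were accessory subunits. Ndufa6, which is bound beside the matrix arm together with an acyl carrier protein, was at 152.0, 152.0 and 158.2 CPM with vehicle and at 117.2, 105.9 and 128.1 CPM with FGF19. It fell by 0.40 on the log2 scale (SE 0.09), from 154.1 ± 3.55 to 117.1 ± 11.1 CPM (SD, n = 3 each), with an adjusted p of 0.0318 in edgeR. Ndufb10, a subunit of the membrane arm, was at 138.7, 142.7 and 145.7 CPM with vehicle and at 105.9, 100.5 and 118.8 CPM with FGF19. Ndufb10 fell by 0.39 (SE 0.09), from 142.3 ± 3.50 to 108.4 ± 9.42 CPM, with an adjusted p of 0.0293 in edgeR. For both genes the spread between FGF19 mice was larger than that between vehicle mice, and the groups were still apart. In mm9, Ndufa6 lies on chr15:82180569-82184721 and Ndufb10 on chr17:24859012-24861333.

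Among the core subunits, Ndufs7, which holds the last iron-sulphur cluster before ubiquinone, had the lowest log2 fold change. It was at 78.9, 81.0 and 81.9 CPM with vehicle and at 56.0, 52.1 and 73.9 CPM with FGF19. FGF19 replicate 3 lay close to vehicle, and the log2 fold change of -0.41 had an adjusted p of 0.087 in edgeR. Ndufv1, which binds NADH and flavin, was at 179.5, 184.5 and 183.1 CPM with vehicle and 151.9, 141.0 and 173.2 CPM with FGF19 (-0.23, adjusted p = 0.179 in edgeR). Ndufs1, the largest iron-sulphur subunit, was at 132.0, 117.3 and 126.5 CPM against 105.1, 112.0 and 103.5 CPM (-0.23, adjusted p = 0.142 in edgeR). None of these 3 core subunits overlapped between the groups, and none passed the test. In all, 23 of the 34 had every FGF19 library below every vehicle library. The smallest differences in complex I were those of Ndufa1, Ndufs8 and Ndufa11, at -0.16, -0.17 and -0.17.

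**Figure D4:**
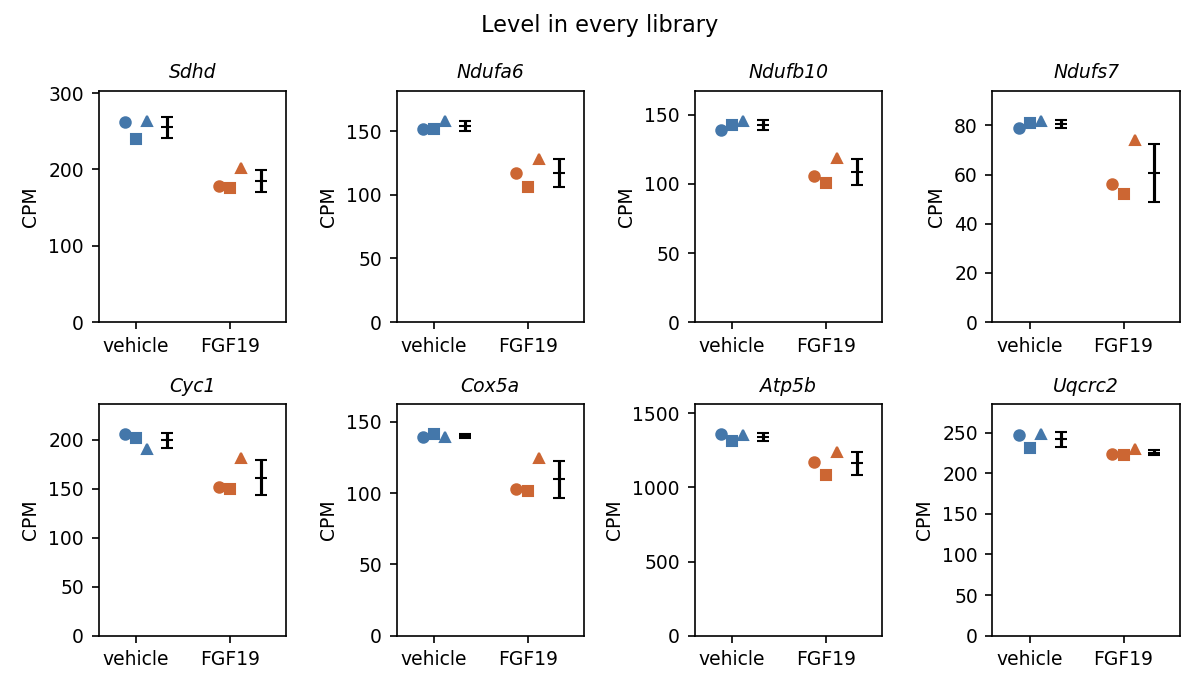
Level in CPM of 8 genes from complexes I to V in each vehicle (blue) and FGF19 (orange) library, with replicates 1, 2 and 3 as circle, square and triangle and the mean ± SD (n = 3) in black. For all 8 genes the FGF19 values lie below those of vehicle, and for Uqcrc2 the highest FGF19 value, 229.1 CPM, is just below the lowest vehicle value, 230.6 CPM.

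In complex III, all 9 genes had every FGF19 library below every vehicle library, and none passed the adjusted test. The median log2 fold change was -0.22. Cyc1, which encodes the cytochrome c1 that passes electrons to cytochrome c, was at 205.6, 201.7 and 190.7 CPM with vehicle and at 161.0 ± 17.8 CPM (SD, n = 3) with FGF19, where the highest value was 181.6 CPM (-0.31, adjusted p = 0.0932 in edgeR). Uqcrfs1, the Rieske iron-sulphur protein, was at 210.5, 198.3 and 210.9 CPM against 161.1, 168.9 and 183.6 CPM (-0.27, adjusted p = 0.0914 in edgeR). Uqcr10, a small accessory subunit, had the lowest fold change of the complex at -0.36 (adjusted p = 0.0825 in edgeR). The 2 core proteins that face the matrix were nearest to 0. Uqcrc1 was at 274.1, 271.1 and 273.8 CPM with vehicle and 236.7, 231.6 and 269.8 CPM with FGF19 (-0.15, adjusted p = 0.356 in edgeR). Uqcrc2 was at 246.4, 230.6 and 247.9 CPM against 223.9, 222.8 and 229.1 CPM (-0.10, adjusted p = 0.503 in edgeR). Cycs, the mobile carrier between complexes III and IV, overlapped between the groups, with 44.9, 37.5 and 42.2 CPM against 33.1, 36.2 and 42.3 CPM (-0.16, adjusted p = 0.46 in edgeR).

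Complex IV held 15 tested genes, and 14 had a log2 fold change below 0. Cox5a, an accessory subunit that binds the catalytic core from the matrix side, was at 139.1, 141.3 and 139.4 CPM with vehicle and at 103.0, 101.6 and 124.8 CPM with FGF19. The vehicle values were nearly equal and the FGF19 values were all lower, with a log2 fold change of -0.35 (SE 0.10) and an adjusted p of 0.0645 in edgeR. Cox5a passed the test in DESeq2, with total count scaling and without FGF19 replicate 3. Cox4i1, the subunit through which ATP is known to inhibit the enzyme, was at 362.0, 351.7 and 367.8 CPM against 278.3, 255.6 and 348.5 CPM (-0.29, adjusted p = 0.169 in edgeR). Cox5b, which binds zinc, overlapped between the groups, with 186.9, 183.6 and 180.9 CPM against 157.8, 141.1 and 181.8 CPM (-0.20, adjusted p = 0.287 in edgeR). The 11 accessory subunits of the liver enzyme ranged from -0.35 to -0.15 with a median of -0.23, and 9 of them had groups apart.

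The isoforms of complex IV that are known mainly from other tissues were close to absent. Cox7b2 and Cox8c had 0 counts in all 6 libraries, which allows up to 0.159 CPM in the shallowest. Cox4i2, the lung isoform, had 3, 1 and 0 counts with vehicle and 1, 0 and 1 with FGF19. Cox6a2 of heart and muscle had 2, 1 and 3 counts against 3, 5 and 4, and Cox8b, also a muscle isoform, had 1, 2 and 0 against 0, 0 and 1. These 5 were not tested, and differences between the groups were not detectable at this depth. Cox7a1, another muscle isoform, was at 0.763, 0.795 and 0.894 CPM with vehicle and 0.558, 0.460 and 0.634 CPM with FGF19. Cox6b2, the testis isoform, was at 1.00, 1.32 and 1.69 CPM against 0.930, 0.276 and 1.04 CPM. Per kilobase of exon, the vehicle levels of Cox7a1 and Cox6b2 were 2.23 and 2.22 CPM, where that of Cox4i1 was 530.9 CPM. Ndufa4l2, the paralog of Ndufa4, was at 1.43, 1.91 and 1.69 CPM with vehicle and 1.21, 1.33 and 2.58 CPM with FGF19. Its fold change was 0.03 (adjusted p = 0.967 in edgeR), and it lay below 0 in limma-voom, with a replicate block and when vehicle replicate 1 or FGF19 replicate 3 was left out.

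In complex V all 15 genes had log2 fold changes below 0, with a median of -0.26. The 5 genes of the F1 head, which makes the ATP, all had groups apart and a median of -0.24. Atp5b, the catalytic beta subunit, had the highest level per length of all members, with a vehicle mean of 713.8 CPM per kilobase. It was at 1359.4, 1312.0 and 1352.5 CPM with vehicle and 1168.6, 1081.7 and 1237.3 CPM with FGF19 (-0.21, SE 0.09, adjusted p = 0.206 in edgeR). Atp5a1, the alpha subunit that alternates with beta, was at 1173.0, 1067.6 and 1187.2 CPM against 950.1, 940.8 and 1022.2 CPM (-0.23, adjusted p = 0.154 in edgeR). Both abundant subunits were thus lower in each FGF19 library than in any vehicle library, by an amount that did not pass the test. The 10 genes of the membrane part and stalk had a median of -0.27, with 7 of the groups apart. Among them, the isogenes Atp5g1, Atp5g2 and Atp5g3, which encode the same mature c-ring protein, were at -0.12, -0.29 and -0.24. Their order is uncertain, since 59.9% of the 100-base stretches of Atp5g1 and 100% of those of Atp5g2 have an exact copy elsewhere in the genome.

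Atp5l, subunit g of the ATP synthase, had the lowest log2 fold change of all members and also a count that is hard to read. It was at 1.72, 1.59 and 1.89 CPM with vehicle and at 0.837, 0.597 and 1.22 CPM with FGF19. The groups were apart, and the log2 fold change of -0.96 (SE 0.30) had an adjusted p of 0.0855 in edgeR. In the mm9 genome, 83.1% of the 100-base stretches of its exons have an exact copy elsewhere, and reads that aligned to several places were left out of the counts. Its level per kilobase, 3.37 CPM with vehicle, was far below the 713.8 CPM of Atp5b in the same complex. Ndufb4 of complex I was alike, with copies of 85.4% of its stretches, 13.1 CPM per kilobase and a log2 fold change of -0.50 (adjusted p = 0.0772 in edgeR). Its values were 5.62, 6.68 and 5.56 CPM with vehicle and 4.23, 4.18 and 4.21 CPM with FGF19. A high share of copies did not always go with a low level. Cox7c of complex IV had copies of 86.0% of its stretches, 182.9 CPM per kilobase with vehicle and a log2 fold change of -0.24, and Atp5g2, with copies of all its stretches, still had 384 to 544 counts per library. Levels of genes with copies are uncertain.

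Ndufs5, another subunit of complex I, had 0 counts in all 6 libraries. Copies elsewhere cover 68.5% of its stretches, and in the annotation its exons on chr4:123389953-123395429 are also those of BC002163, so that reads there belong to both genes. BC002163 had 10, 10 and 13 counts with vehicle and 7, 10 and 9 with FGF19. The value of 0 is therefore no measure of Ndufs5 mRNA. In all, 28 members had a copy of some stretch or an overlap with another gene. The 55 tested members with neither had a median log2 fold change of -0.24 and included all 4 that fell, and the 26 tested members with either had -0.23.

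**Figure D5:**
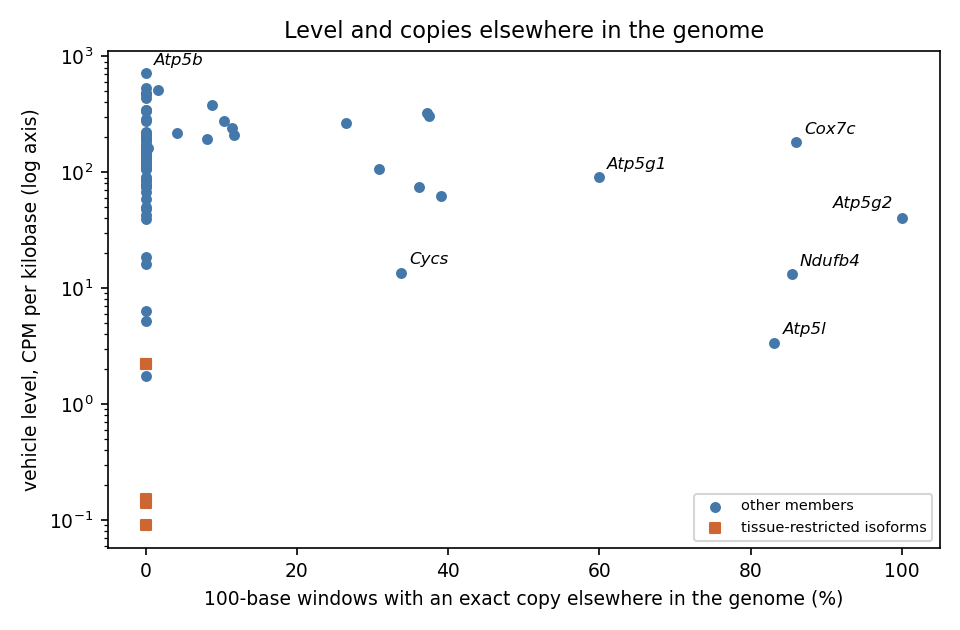
Vehicle level per kilobase of exon (log axis) against the share of 100-base stretches of each member that have an exact copy elsewhere in mm9. The members at 0 counts cannot be shown on a log axis. Atp5l (3.37 CPM per kilobase) and Ndufb4 (13.1) combine a high share of copies with a low level, and the tissue-restricted isoforms lie at 2.23 CPM per kilobase or less with no copies.

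The 3 genes with subunit-like names differed from each other. Atp5sl, now named Dmac2 and known as a factor for complex I assembly, was at 43.1, 45.04 and 43.8 CPM with vehicle and 33.1, 30.7 and 37.8 CPM with FGF19. It fell by 0.38 on the log2 scale (SE 0.10), from 44.0 ± 0.995 to 33.9 ± 3.61 CPM (SD, n = 3 each), with an adjusted p of 0.0497 in edgeR. The call was lost when at least 1 CPM was required in every library (adjusted p = 0.0529 in edgeR) and with a replicate block (adjusted p = 0.126 in edgeR). Over all alternatives its adjusted p was between 0.00783 and 0.202. Atp5s overlapped between the groups (-0.16, adjusted p = 0.513 in edgeR). Cox4nb, which encodes a subunit of a membrane protein complex of the endoplasmic reticulum, was at 27.1, 27.0 and 23.0 CPM with vehicle and 25.5, 26.4 and 29.3 CPM with FGF19. Its fold change of 0.08 (adjusted p = 0.725 in edgeR) was the highest of all members. This is the only tested member besides Ndufa4l2 that lay above 0.

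Most members are short and well expressed, and genes of that kind were themselves a little lower after FGF19. The 53 tested members with up to 1000 bases of exon had a median of -0.25, where all 867 tested genes of that length had -0.10. The 28 longer members had -0.22, where the 11692 longer genes had 0.01. Among the 1678 genes whose mean level lay within the members' quartiles, the median was -0.05 and 61.1% were below 0. With the trend of the fold change on exon length taken out, the members' median was -0.15. The members were thus below the genes set beside them in each of these descriptions. For the short members and at like level, the gap was narrower than beside all genes, but not for the longer members. Lengths were matched only loosely. The longer members had a median exon length of 1553 bases, where the longer genes had 3002.5, and the short members had 549 where the short genes had 768. Length and level were not matched together.

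The letters bound by known regulators of respiratory genes were present in a larger share of the members' promoters than of all promoters, and no test was made. Beside the promoters of genes tested here, the share was larger for NRF1 and YY1, close for ETS and smaller for Sp1. The share for ERR rests on 2 promoters. NRF1, GABP (an ETS factor), YY1 and the estrogen-related receptors (ERR) are known to act on such genes. Promoters were taken from RefSeq on GRCm38.p6, from 250 bases before to 50 bases after the start, and 70 of the 87 members had one. Both strands were searched. GCATGCGC (NRF1) was found in 11 of them (15.7%), beside 2.81% of all 27025 promoters and 5.43% of those of 9052 genes tested here. CCGGAAG (ETS and GABP) was found in 15 (21.4%), beside 9.12% and 17.6%. AAGATGGC (YY1) was found in 10 (14.3%), beside 2.88% and 4.6%. TCAAGGTCA (ERR) was found in 2 (2.86%), beside 0.407% and 0.276%. GGGCGG (Sp1), which is common in CpG-rich promoters, was found in 29 (41.4%), beside 35.9% and 63.3%. At least 1 of the NRF1, ETS or YY1 motifs was in 31 promoters (44.3%), beside 13.8% of all and 25.2% of those of tested genes. A match is a description of letters and not a bound site.

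The 250 bases upstream of the start are shown for the 3 subunits that fell, Sdhd, Ndufa6 and Ndufb10, because they differ in these letters. They are on the minus strand at chr9:50603850-50604099, chr15:82354292-82354541 and chr17:24724424-24724673 of GRCm38.p6 and are printed 5′ to 3′ in the direction of the gene. Capitals mark CTTCCGG in Sdhd, the ETS and GABP letters read on the opposite strand, 46 bases before the start. In Ndufa6 they mark the NRF1 letters, 83 bases before the start. None of the 5 motifs lies in the stretch of Ndufb10. The window of Sdhd also holds the ERR letters on the opposite strand, 36 bases after the start and so outside the stretch shown, and the Sp1 letters across the start.
Sdhd: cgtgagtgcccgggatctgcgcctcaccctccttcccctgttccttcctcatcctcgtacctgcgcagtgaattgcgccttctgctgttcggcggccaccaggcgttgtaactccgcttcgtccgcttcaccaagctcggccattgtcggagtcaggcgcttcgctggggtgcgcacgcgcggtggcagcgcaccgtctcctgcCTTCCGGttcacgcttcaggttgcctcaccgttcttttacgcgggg
Ndufa6: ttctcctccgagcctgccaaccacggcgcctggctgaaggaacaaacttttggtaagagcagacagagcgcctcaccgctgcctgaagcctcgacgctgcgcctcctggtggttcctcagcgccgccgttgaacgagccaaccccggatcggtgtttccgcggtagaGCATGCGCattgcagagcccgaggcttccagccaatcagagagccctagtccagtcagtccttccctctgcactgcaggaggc
Ndufb10: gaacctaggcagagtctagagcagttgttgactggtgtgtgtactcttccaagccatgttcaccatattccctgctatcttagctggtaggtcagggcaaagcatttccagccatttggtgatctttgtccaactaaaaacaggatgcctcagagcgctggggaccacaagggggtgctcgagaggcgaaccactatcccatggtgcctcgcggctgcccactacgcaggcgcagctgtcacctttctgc
The window of Ndufa6 holds the Sp1 letters too, 42 bases after the start and so outside the stretch shown.

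The regulators themselves showed no common direction, with 11 of 20 below 0 and a median log2 fold change of -0.02. Esrra, which encodes an estrogen-related receptor, was at 39.9, 41.6 and 39.3 CPM with vehicle and 26.8, 27.6 and 35.5 CPM with FGF19. Its groups were apart, with FGF19 replicate 3 again the nearest to vehicle, and the log2 fold change was -0.43 (SE 0.12, adjusted p = 0.0606 in edgeR). Esrra passed the test in DESeq2, with total count scaling, with no filter and without FGF19 replicate 3. Ppargc1a, the fasting-induced coactivator of these genes, overlapped, with 11.6, 14.5 and 16.2 CPM against 26.8, 18.3 and 11.1 CPM (0.41, adjusted p = 0.417 in edgeR). Its relative Ppargc1b was at -0.41 (adjusted p = 0.179 in edgeR). Nrf1, Gabpa, Yy1 and Tfam, which encodes the factor that packages mitochondrial DNA, had fold changes of 0.16, 0.09, -0.10 and -0.004, with adjusted p of 0.473, 0.778, 0.675 and 0.988 in edgeR. The sign of Gabpa, Yy1 and Tfam turned when single libraries were left out. Every FGF19 library lay below every vehicle library for 4 of the 20 regulators and above for 3, beside 13.8% and 14.5% of all genes. The 3 were Nrf1, Gabpb1 (0.40, adjusted p = 0.0821 in edgeR) and Tfb1m (0.40, adjusted p = 0.0742 in edgeR). Of the 20 regulators, 2 fell and none rose, where 2.84% of all genes tested fell and 4.56% rose. Sirt3, a mitochondrial deacetylase, was at 71.4, 79.7 and 74.8 CPM with vehicle and 48.6, 48.9 and 60.8 CPM with FGF19, and fell by 0.51 (SE 0.11, adjusted p = 0.0209 in edgeR). Polg2, the accessory subunit of the mitochondrial DNA polymerase, fell by 0.63 (SE 0.14, adjusted p = 0.0267 in edgeR).

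Genes that work beside the complexes gave medians nearer to 0, but these lists were not matched to the members in exon length. The median exon length was 692 bases in the tested members and 2261 bases in the genes of the TCA cycle and pyruvate dehydrogenase. In the other lists below it was 1053 to 1863 bases, so the sizes cannot be compared directly. Of all genes tested, 2.84% fell and 4.56% rose at an adjusted p under 0.05 in edgeR. The 18 genes of the TCA cycle and pyruvate dehydrogenase, which supply NADH and succinate, had a median log2 fold change of -0.18, and 2 of them fell. Of these, Idh2, mitochondrial isocitrate dehydrogenase, fell by 0.39 (SE 0.08, adjusted p = 0.0219 in edgeR), from 146.4 ± 9.31 to 111.4 ± 1.90 CPM (SD, n = 3 each). The 18 other genes tied to oxidative phosphorylation, among them carriers and electron transfer flavoproteins, had a median of -0.19, and 2 fell. These were Vdac1, the main pore of the outer membrane, by 0.42 (adjusted p = 0.0189 in edgeR), and Higd2a, which helps assemble complex IV, by 0.39 (adjusted p = 0.0378 in edgeR). Ndufab1, the acyl carrier protein of complex I, which the choice by symbol leaves out, was at -0.13 (adjusted p = 0.572 in edgeR). The 29 assembly factors tested had a median of -0.11, and none passed the test in edgeR. Among the 29, 2 were lower and 1 higher at an unadjusted p under 0.05, beside 1417 and 1463 of the 12559 genes tested. The 76 mitochondrial ribosomal proteins had a median of -0.10. Of these, Mrpl15 and Mrpl34 fell by 0.40 each (adjusted p = 0.0263 and 0.0423 in edgeR), and Mrps18b rose by 0.37 (adjusted p = 0.0452 in edgeR). Each of the calls for Sirt3, Polg2, Idh2, Vdac1, Higd2a, Mrpl15, Mrpl34 and Mrps18b was lost without FGF19 replicate 1, FGF19 replicate 2 or vehicle replicate 3, and each held without FGF19 replicate 3. With a replicate block the call for Sirt3 held (adjusted p = 0.0463 in edgeR), and the others were lost (adjusted p = 0.0612 to 0.142 in edgeR). Their results without vehicle replicate 1 or vehicle replicate 2 are not given here. The call for Mrps18b was also lost with no filter on low counts (adjusted p = 0.0577 in edgeR), and over all alternatives its adjusted p was between 0.0381 and 0.166. The subunits encoded in mitochondrial DNA were not analysed here.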

How the data were processed

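RNA of whole liver from 6 mice was sequenced as paired-end reads of 100 bases. Per the submitters' processing notes, the authors used bcl2fastq 2.17.1.14, Trimmomatic 0.36, FastQC 0.11.5, STAR 2.5.3a and featureCounts 1.5.2, and the study's methods name another version of STAR. The authors deposited raw read counts per gene on an mm9 annotation, counted without strand, with mates of a pair counted singly and reads aligned to several places left out. The authors' table of their own comparison, with fold changes and p-values, was not used.

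Groups came from the sample labels. Counts were fitted for all genes in R 4.3.3 with edgeR 4.0.16 (TMM scaling, filterByExpr, quasi-likelihood test, Benjamini-Hochberg adjustment), and the members' rows were read from that fit. The fit was tested on simulated data. Alternatives were DESeq2 1.42.0, limma-voom 3.58.1, other scalings and filters, a replicate block and leaving out each library. An exact permutation test of 3 against 3 mice cannot go below a two-sided p of 0.1 and was not used. The p-values set the group difference against the spread between these mice, which the fit estimates for both groups together. For the members the median coefficient of variation was 3.25% with vehicle and 10.9% with FGF19. Promoters came from RefSeq. For the check of the genome build, 99.5% of the members' 375 introns in the mm9 reference began with GT and ended with AG.

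The members and lists were chosen with earlier results of these data known. Genes are named if they passed the test, had the 3 lowest or 3 highest fold changes, had the 3 highest levels per length or were picked by role. In related lists, those that passed the test and 8 picked genes are named. Some genes that these rules take are not reported here. Others in the text (Sdhc, Ndufs7, Uqcr10 and further examples) were chosen after their values were seen.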

Additional observations from a re-analysis of the deposited data

How the results depend on the processing

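Outside the settings that leave out a library, the medians of the members and of the 5 complexes kept their direction, and 72 of 76 values moved by less than the spread between replicates or, for counts, by no more than 1.5 times. The exceptions were counts of lower members. At an adjusted p under 0.05 these were 8 with DESeq2 (9.88%, beside 4.13% of all genes) and 1, Sdhd, with a replicate block (1.24%, beside 1.31%). At p under 0.01 they were 21 with total count scaling (25.9%, beside 5.41%) and 4 with the replicate block (4.94%, beside 3.26%). With the replicate block the members' share was thus near that of all genes. Between DESeq2 and edgeR the 4 called genes were shared. With each library left out, the lower members numbered 0 to 57 at an adjusted p under 0.05 and 1 to 63 at p under 0.01, none was higher, and the medians ranged from -0.32 to -0.18 for all members, -0.32 to -0.17 for complex I, -0.33 to -0.19 for complex II, -0.28 to -0.18 for complex III, -0.31 to -0.19 for complex IV and -0.35 to -0.21 for complex V. The cause was not tested.

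The log2 fold change turned for Ndufa4l2 to -0.0392 in limma-voom and -0.0178 with the replicate block, and for Tfam to 0.0018 with at least 1 CPM in every library. With each library left out it was between -0.388 and 0.2281 for Ndufa4l2, -0.0074 and 0.2651 for Gabpa, -0.1825 and 0.0167 for Yy1, and -0.0556 and 0.0787 for Tfam. The labels do not say whether the replicate numbers pair the mice. Same-numbered deviations from the group means correlated at -0.0313, -0.181 and -0.182, and no library correlated best with its own number. With 3 libraries per group, these correlations cannot decide whether mice were paired. With at least 1 CPM in every library, 3 members were called, and Atp5sl was the one lost. The removed trend on exon length left a median of -0.15. The depth limits genes near 3 counts, mainly the tissue-restricted isoforms.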
